A study of Rattus norvegicus with 17 samples.

Results

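TGF-beta and activin signalling was followed through 10 named genes in colon mucosa of rats fed a high or a low calcium diet. The members were chosen by the gene name that the array's design gives to a probe. By that rule 9 of the 10 genes were found, on 12 of the 41012 probes; Smad7 was on the array only under its old name Madh7, and its probe was added through its RefSeq accession. All rats were female HLA-B27/β2-microglobulin transgenic animals on an inbred Fisher 344 background, 8 to 10 weeks old at the start, and all ate a purified Western diet, so both groups carried the transgenes. These rats are known for spontaneous colitis. The high calcium group held 8 rats at 120 mmol calcium per kg diet, with calcium added in place of glucose, and the low calcium group held 9 rats at 30 mmol per kg. The question was how the calcium content of the diet changes gene expression in the mucosa of this colitis model. Each rat had 1 array of its own, on which its RNA carried Cy5 and pooled RNA of all the animals carried Cy3, and a value below is the log2 ratio of a rat's signal to that pool. Such a ratio compares rats for 1 probe and says nothing about the level of one gene against another.

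TGF-beta ligands are secreted as latent complexes that latent TGF-beta binding proteins such as Ltbp1 anchor in the extracellular matrix, and integrins or proteases free the ligand. Free ligand binds Tgfbr2, which recruits and activates Tgfbr1, and this pair phosphorylates Smad2 and Smad3, which enter the nucleus with Smad4; Smad7 inhibits the receptors. Activin A is a dimer of the Inhba product and reaches the same Smads through activin receptors, and in the gut both ligands are known for fibroblast activation, matrix deposition and restraint of immune cells.

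The promoters of the 3 members with the largest differences between the diets are shown because these genes also varied together across the rats of both diets pooled. Each sequence holds the 250 bases before the RefSeq start in build GRCr8, written 5′ to 3′ on the gene's own strand, and capitals mark matches to the motifs named after it.
Inhba, chr17:53804509-53804758, minus strand: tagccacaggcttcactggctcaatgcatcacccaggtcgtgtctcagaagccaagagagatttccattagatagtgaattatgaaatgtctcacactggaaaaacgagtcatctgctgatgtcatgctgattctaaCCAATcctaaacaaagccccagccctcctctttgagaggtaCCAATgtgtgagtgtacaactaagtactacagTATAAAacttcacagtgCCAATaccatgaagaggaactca
Ltbp1, chr6:26177302-26177551, minus strand: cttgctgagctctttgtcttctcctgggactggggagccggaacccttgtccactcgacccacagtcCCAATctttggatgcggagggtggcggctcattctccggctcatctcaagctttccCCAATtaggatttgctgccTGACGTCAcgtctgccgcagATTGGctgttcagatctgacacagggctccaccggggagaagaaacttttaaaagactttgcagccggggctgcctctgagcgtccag
Tgfbi, chr17:7990114-7990363, minus strand: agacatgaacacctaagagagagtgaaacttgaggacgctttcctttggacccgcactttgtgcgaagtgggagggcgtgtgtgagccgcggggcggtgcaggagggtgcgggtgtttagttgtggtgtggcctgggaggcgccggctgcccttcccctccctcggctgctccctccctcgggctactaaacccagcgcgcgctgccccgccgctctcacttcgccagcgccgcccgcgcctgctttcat
All 10 members had a promoter in the RefSeq table. None of the 10 windows held the AP-1 motif TGANTCA or the Smad motifs CAGACA and GTCTAGAC, on either strand. Of all 33465 promoter windows of this length, 6.34% held the AP-1 motif, 17.2% held CAGACA and 0.173% held GTCTAGAC. Further motifs were added after the sequences were read. The TATA box TATAAA, searched on the gene's strand only, stood in the Inhba window alone among members, 40 bases before the start, and in 8.06% of all windows. The cAMP response element TGACGTCA stood in the Ltbp1 window alone, 108 bases before the start, and in 1.59% of all windows. The CCAAT box, searched on both strands, stood in 4 of the 10 windows, those of Inhba, Ltbp1, Tgfbr1 and Tgfbr2, and in 34.0% of all windows. No match overlapped a match of another motif. A match is a description of letters and does not show that a factor binds there.

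Of the 7 member genes found by name and bright enough to test, Inhba, Ltbp1, Tgfbi and Tgfb1 had lower ratios at high calcium at an unadjusted p under 0.05, and 0 had higher ratios at that level. Over all 23149 genes tested, 5.22% were lower and 4.58% higher at that level. None of the members passed Benjamini-Hochberg adjustment over all 27101 probes at 0.05. Neither did any other gene, so the share called over all genes was 0%, with 2595 probes at an unadjusted p under 0.05 in limma; the smallest adjusted p of any probe was 0.0799. By sign alone 5 of the 7 genes were lower and 2 higher, and over all genes 10488 of 23149 were lower. The median difference of the 7 genes was -0.10 against a median of 0.01 over all genes. In mucosal scrapings, fewer cells of a type and less RNA per cell cannot be told apart.

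**Figure D1:**
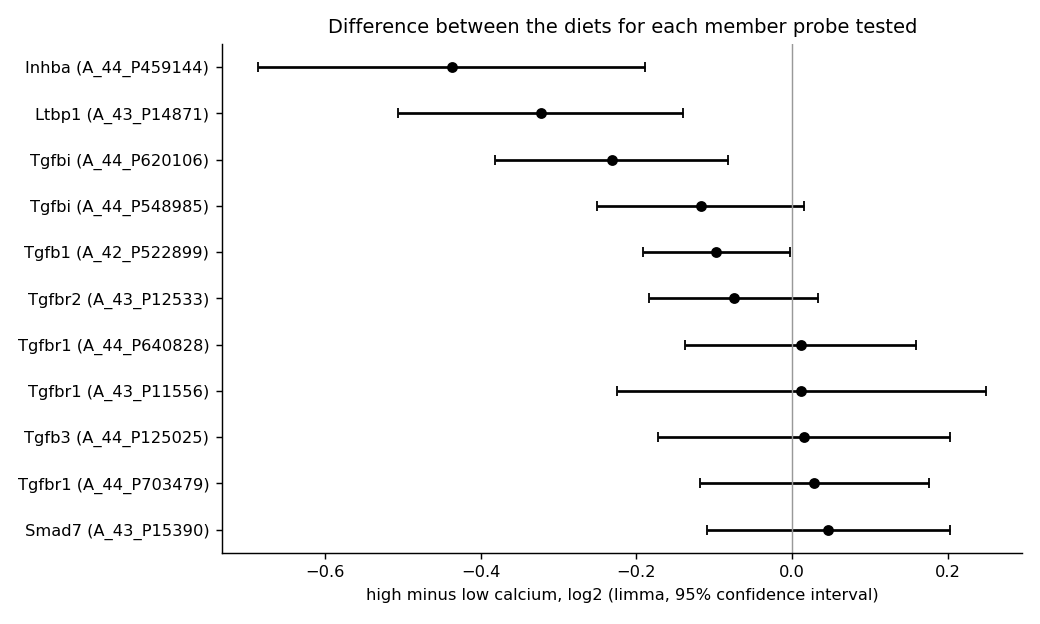
Difference between the diets for each of the member probes tested, in log2 units on the horizontal axis. Points are high minus low calcium means and bars are 95% confidence intervals from limma. The intervals of Inhba, Ltbp1, the brighter Tgfbi probe and Tgfb1 lie below 0, that of Tgfb1 reaching -0.002, and the other intervals include 0.

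Among the ligands, Inhba encodes the subunit of activin A and showed the widest gap between the diets. Its ratio ran from -0.61 over a median of -0.20 to 0.42 in high calcium rats, and from -0.12 over a median of 0.21 to 0.67 in low calcium rats. Of the 8 high calcium rats, 6 were lower than any low calcium rat, 7 lay below the low calcium mean, and rat 3 alone lay near the top of the low calcium range. Inhba averaged -0.19 ± 0.31 at high calcium (SD, n = 8) and 0.25 ± 0.24 at low calcium (SD, n = 9). The difference was -0.44 ± 0.12 (SE), with a 95% confidence interval from -0.69 to -0.19, which is a signal of 0.739 times that at low calcium. In limma the unadjusted p was 0.00148, which ranked 233 among all probes, and the adjusted p was 0.169. An exact two-sided permutation test over all 24310 assignments of rats to diets gave p = 0.00634, with no adjustment. The 60-base probe lies on the minus strand at chr17:57247445-57247504 in build rn3, the build named in the files.

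Tgfb1, the ligand best known for restraint of immune cells and for fibrosis, had a smaller difference. Its ratio ran from -0.21 over a median of -0.12 to 0.09 at high calcium, and from -0.13 over a median of 0.03 to 0.08 at low calcium. The ranges overlapped, with 3 of the 8 high calcium rats under the whole low calcium range and with high calcium rat 14 above all low calcium rats. The means were -0.10 ± 0.09 at high calcium (SD, n = 8) and -0.004 ± 0.079 at low calcium (SD, n = 9). The difference of -0.10 ± 0.05 (SE) had an unadjusted p of 0.0453 and an adjusted p of 0.503 in limma, and an exact permutation p of 0.0335. This probe (chr1:80988234-80988293 in rn3, plus strand) was printed 10 times on each array, and the SD among its spots ran from 0.04 to 0.10 within an array. The unadjusted p in limma was above 0.05 when any 1 of 13 of the 17 rats was left out, and above 0.05 with slide as a block (0.0807), so the Tgfb1 difference sat at the threshold; without rat 14 the p was 0.00762.

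Of the other ligands, Tgfb3 gave no difference beyond the spread between rats, and Tgfb2 was too dim to test. Tgfb3, a TGF-beta isoform known from mesenchymal cells, ran from -0.24 over a median of 0.05 to 0.46 at high calcium and from -0.29 over a median of 0.08 to 0.36 at low calcium, and the ranges overlapped almost wholly. Its difference was 0.02 ± 0.09 (SE, limma unadjusted p = 0.862), with a 95% confidence interval from -0.17 to 0.20, and its sign turned under several other settings. Tgfb2, another isoform, was not well above background on any array, with 0 of 8 at high and 0 of 9 at low calcium, and did not enter the test.

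Ltbp1 stores latent TGF-beta in the matrix and came closest to Inhba. Its ratio ran from -0.55 over a median of -0.21 to 0.15 at high calcium, and from -0.16 over a median of 0.14 to 0.36 at low calcium. Of the 8 high calcium rats 5 were lower than any low calcium rat, and of the 9 low calcium rats 4 lay above every high calcium rat. The means were -0.19 ± 0.22 at high calcium (SD, n = 8) and 0.13 ± 0.18 at low calcium (SD, n = 9). The difference was -0.32 ± 0.09 (SE), with a 95% confidence interval from -0.51 to -0.14, or 0.799 times the signal at low calcium. Limma gave an unadjusted p of 0.00144 and an adjusted p of 0.169, and the exact permutation p was 0.00531. The probe lies at chr6:19945662-19945721 in rn3, minus strand.

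The receptors differed by less than the spread between rats. Tgfbr2, which binds the ligand first, ran from -0.33 over a median of -0.22 to -0.07 at high calcium and from -0.30 over a median of -0.14 to 0.10 at low calcium, with overlapping groups. Its difference was -0.07 ± 0.05 (SE, limma unadjusted p = 0.167). Tgfbr1, the partner that phosphorylates Smads, had 3 probes, whose differences of 0.01, 0.01 and 0.03 had unadjusted p values in limma of 0.917, 0.877 and 0.690. Its brightest probe averaged -0.09 ± 0.11 at high calcium (SD, n = 8) and -0.12 ± 0.18 at low calcium (SD, n = 9), with a 95% confidence interval of the difference from -0.12 to 0.18. The 3 probes followed each other only in part, with r between 0.40 and 0.58 across the 17 rats.

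Among the intracellular members, Smad7, the inhibitor of the receptors, averaged -0.005 ± 0.105 at high calcium (SD, n = 8) and -0.05 ± 0.20 at low calcium (SD, n = 9). Its values ran from -0.13 over a median of -0.02 to 0.22 at high calcium and from -0.29 over a median of -0.10 to 0.32 at low calcium, so the low calcium rats spanned all high calcium rats. The difference was 0.05 ± 0.07 (SE), with an unadjusted p in limma of 0.538. Smad3, the transcription factor that carries the signal, was well above background on 1 of 8 arrays at high and on 0 of 9 at low calcium, and did not enter the test either. Its probe spans 7056 bases of chromosome 8 in rn3, whereas each other member probe spans 60.

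Tgfbi is a secreted matrix protein named for its induction by TGF-beta. Its brighter probe (chr17:13905255-13905314 in rn3, minus strand) ran from -0.34 over a median of -0.13 to 0.13 at high calcium, and from -0.24 over a median of 0.15 to 0.24 at low calcium. Of the 9 low calcium rats 7 lay above every high calcium rat, and rat 16 alone lay far below its group. The means were -0.12 ± 0.17 at high calcium (SD, n = 8) and 0.11 ± 0.14 at low calcium (SD, n = 9), and the difference was -0.23 ± 0.07 (SE). Limma gave an unadjusted p of 0.00421 and an adjusted p of 0.232, and the exact permutation p was 0.0107. The dimmer Tgfbi probe had a smaller difference of -0.12 ± 0.06 (SE, limma unadjusted p = 0.0800), and the 2 probes correlated at r = 0.62 across rats.

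**Figure D2:**
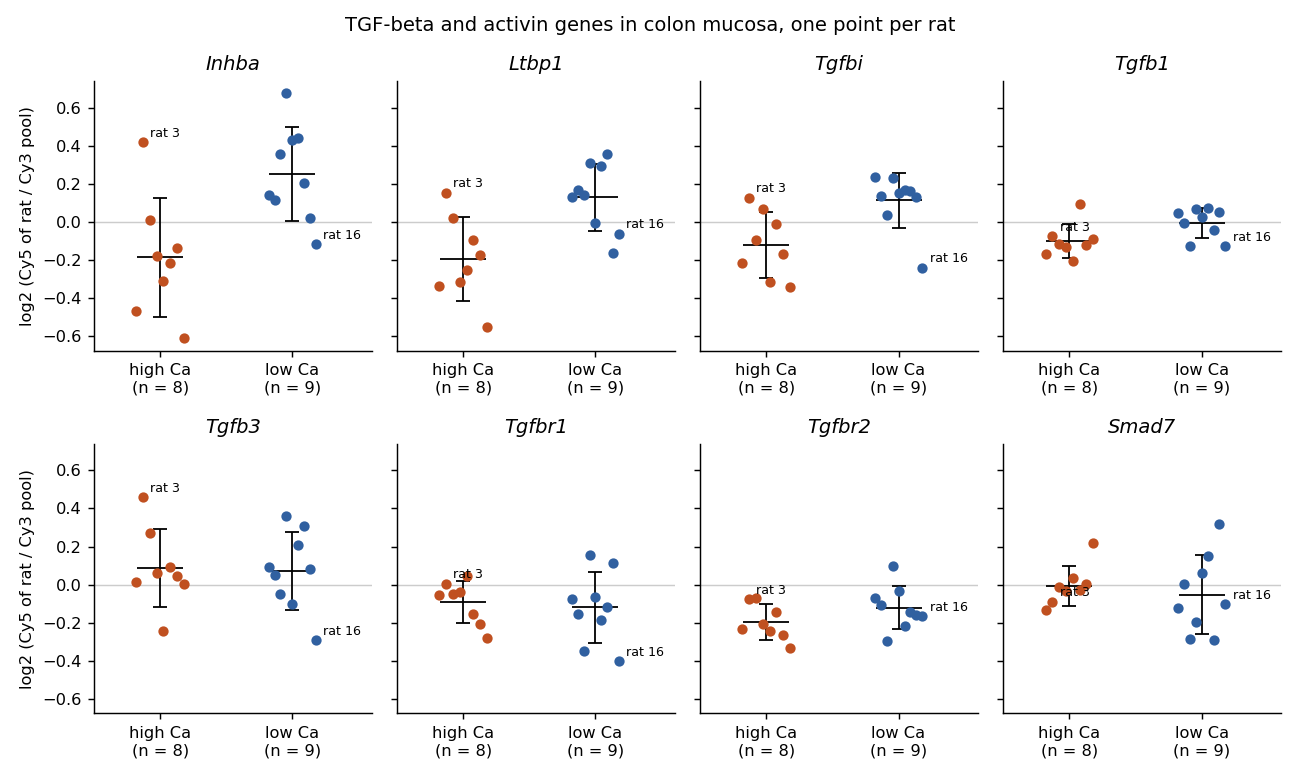
Log2 ratio to the pool (vertical axis) of the brightest probe of each tested member, with 1 point per rat, high calcium left and low calcium right in each panel. Long ticks are means and bars are SDs (n = 8 and 9). Inhba, Ltbp1 and Tgfbi show most high calcium points under the low calcium points, with rats 3 and 16 among the exceptions.

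The same rats were high or low for several members. Inhba and Ltbp1 correlated at r = 0.88 across the 17 rats, Inhba and Tgfbi at 0.82, and Ltbp1 and Tgfbi at 0.76, whereas Inhba and Tgfb1 correlated at 0.52 and Inhba and Smad7 at -0.32. These values are descriptions, since all members come from the same arrays. By the brightest probe of each gene, high calcium rat 18 had the lowest ratios of its group for Inhba, Ltbp1, Tgfbi, Tgfbr1 and Tgfbr2. On the same probes, high calcium rat 3 had the highest for Inhba, Ltbp1, Tgfbi and Tgfb3. Low calcium rat 16 had the lowest ratio of its group for Inhba, Tgfbi, Tgfb3 and Tgfbr1 on these probes. It was also lowest for Tgfb1, at -0.1279 against -0.1264 in low calcium rat 5.

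**Figure D3:**
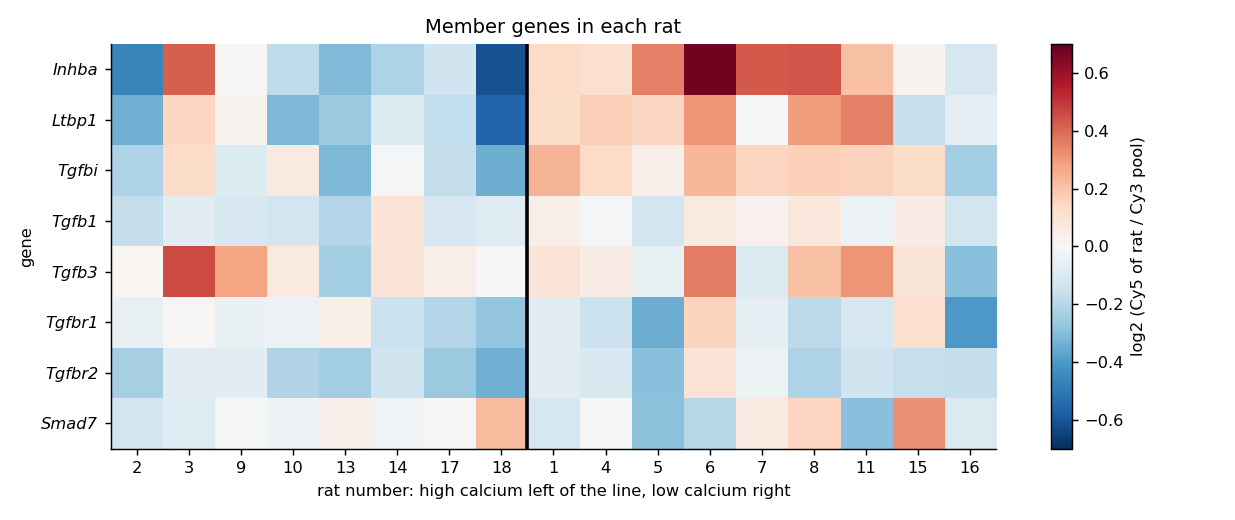
Log2 ratio to the pool of each tested member (vertical axis) in each rat (horizontal axis), with high calcium rats left of the line and low calcium rats right of it. Red is above and blue below the pool. Rat 18 is darkest blue for Inhba at -0.61 and rat 6 is darkest red at 0.67.

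Rats 3 and 16 shared slide 1, and Inhba, Ltbp1 and Tgfbi differed least between the diets on that slide. Within slides 1 to 4, each with 2 rats of each diet, the Inhba difference was -0.02, -0.60, -0.70 and -0.49, that of Ltbp1 -0.15, -0.37, -0.32 and -0.46, and that of Tgfbi 0.01, -0.15, -0.32 and -0.40. Tgfb1 differed by -0.05, -0.09, -0.11 and -0.11 on the same slides. Slide 5 held low calcium rat 1 only. With slide as a block, which takes rat 1 out of the comparison, Inhba differed by -0.45 and Ltbp1 by -0.32, with unadjusted p values in limma of 0.00174 and 0.00382.

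Whether Inhba and Ltbp1 passed adjustment depended on rat 3, whereas Tgfbi had an adjusted p in limma of 0.0789 without that rat. Without rat 3 the Inhba difference was -0.52 with an adjusted p in limma of 0.0183, and that of Ltbp1 was -0.37 with an adjusted p of 0.0349. In that setting 272 of all probes passed, against 0 over all 17 rats. Without both rats 3 and 16, a setting chosen after the data were seen, the adjusted p was 0.00509 for Inhba, 0.0190 for Ltbp1 and 0.0102 for Tgfbi, and 420 of all probes passed. These rats cannot be set aside on any label, and the values over all 17 rats stand as the result.

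**Figure D4:**
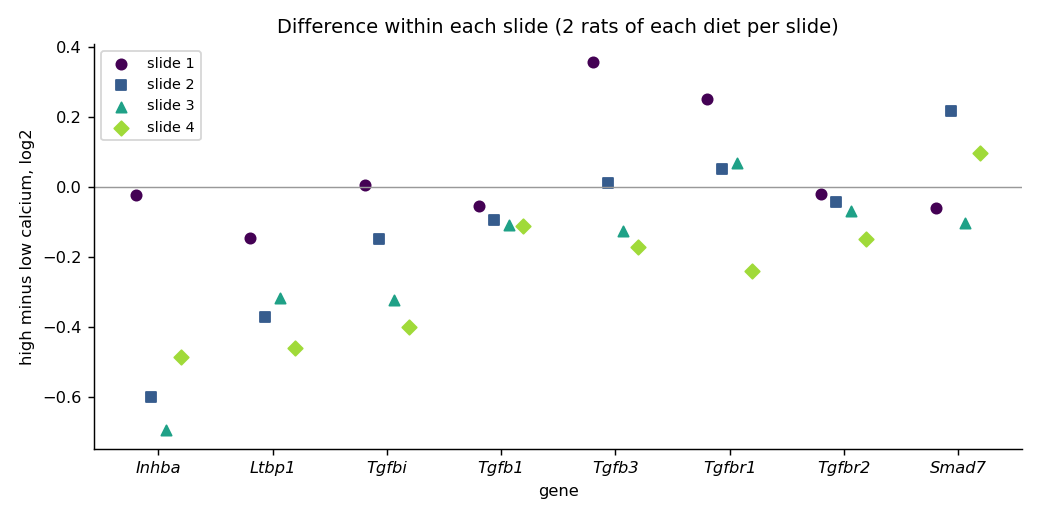
High minus low calcium difference (vertical axis, log2) of each tested member within slides 1 to 4, each with 2 rats of each diet. The points of slide 1 lie closest to 0 for Inhba, Ltbp1 and Tgfbi, and all 4 slides lie below 0 for Inhba, Ltbp1, Tgfb1 and Tgfbr2.

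Other genes of the pathway were taken in 6 lists, of which 72 genes were bright enough to test. Of these, 23 were lower and 6 higher at high calcium at an unadjusted p under 0.05, with a median difference of -0.03, and 0 passed after adjustment. Over all genes 5.22% were lower and 4.58% higher at that level. Each count in the lists and cell type markers below stands beside these shares, from which a count of 1 cannot be set apart. Larger counts were not tested against the shares either. The lists were chosen with earlier results of these data known, and their genes were measured on the same arrays. The known targets held 11 of these lower genes, the antagonists and the latency genes 4 each, and the intracellular partners held 4 of the higher ones; the difference between lists was not tested.

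Of the extracellular antagonists, 4 of 7 tested were lower and 0 higher at an unadjusted p under 0.05, with a median of -0.17. That median was -0.33 under normexp with offset 0, -0.46 on scanner processed signals and -0.40 over probes well above background on all arrays. Decorin (Dcn), a matrix proteoglycan that binds TGF-beta, averaged -0.80 ± 0.63 at high calcium (SD, n = 8) and 0.22 ± 0.42 at low calcium (SD, n = 9), a difference of -1.02 ± 0.22 (SE, limma adjusted p = 0.0919), and 7 of 8 high calcium rats were lower than any low calcium rat. Its relative biglycan (Bgn) differed by -0.50 ± 0.12 (SE, limma adjusted p = 0.101). Follistatin (Fst), which binds and blocks activin, averaged -0.17 ± 0.30 at high calcium (SD, n = 8) and 0.23 ± 0.18 at low calcium (SD, n = 9), a difference of -0.40 ± 0.10 (SE, limma adjusted p = 0.149). Fstl3, a follistatin relative, differed by -0.17 ± 0.06 (SE).

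Of the genes known as TGF-beta targets, 11 of 21 were lower and 1 higher at an unadjusted p under 0.05, with a median of -0.17. That median was -0.34 under normexp with offset 0, -0.35 on scanner processed signals, -0.28 in the Cy5 channel alone and -0.29 over probes well above background on all arrays, and the count of higher genes was 0 or 2 without 12 of the 17 rats in turn. Fibronectin (Fn1) averaged -0.43 ± 0.44 at high calcium (SD, n = 8) and 0.34 ± 0.43 at low calcium (SD, n = 9), a difference of -0.77 ± 0.18 (SE, limma adjusted p = 0.109). The collagen genes Col1a1 and Col1a2 differed by -0.52 ± 0.11 (SE) and -0.47 ± 0.11 (SE), and periostin (Postn), a matrix protein of activated fibroblasts, by -0.44 ± 0.12 (SE). All 8 high calcium rats lay below the low calcium mean for each of these matrix genes. By sign 6 of the 21 were higher, and the 1 of these with an unadjusted p under 0.05 was Id1, named here after its values were seen and best known as a target of bone morphogenetic proteins, at 0.18 ± 0.08 (SE, limma unadjusted p = 0.0435).

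Of the genes for latency, storage and release, 4 of 13 were lower and 0 higher, with a median of -0.08. Fibrillin-1 (Fbn1), to which latent complexes attach, differed by -0.28 ± 0.09 (SE), Emilin1, which limits the processing of the TGF-beta precursor, by -0.21 ± 0.07 (SE), the protease Bmp1 by -0.16 ± 0.07 (SE) and Nrros, a partner of latent TGF-beta on myeloid cells, by -0.12 ± 0.05 (SE). The count of 4 was 2 without low calcium rat 4 and 2 without high calcium rat 17. Of the other ligands, 1 of 5 was lower, which was Gdf15, a stress-induced family member, at -0.25 ± 0.08 (SE).

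Of the other receptors and co-receptors, 3 of 9 were lower and 1 higher, with a median of 0.05 that was 0.002 without high calcium rat 17. The count of 1 higher gene was 0 or 2 without 9 of the 17 rats in turn, and 0 with slide as a block. The decoy receptor Bambi differed by -0.34 ± 0.08 (SE), and the endothelial receptors Acvrl1 and Eng by -0.26 ± 0.07 (SE) and -0.14 ± 0.06 (SE). Acvr1b, the type I receptor for activin, differed by 0.12 ± 0.05 (SE, limma unadjusted p = 0.0445). Of the other Smads and intracellular partners, 0 of 17 were lower and 4 were higher: Smad1 by 0.16 ± 0.07 (SE), the coactivators Ep300 and Crebbp by 0.13 ± 0.06 (SE) and 0.12 ± 0.05 (SE), and Smad4, the shared partner of all receptor-activated Smads, by 0.09 ± 0.04 (SE). The limma adjusted p of these 4 genes ran from 0.415 to 0.503, and the 2 Ep300 probes differed in sign. The count of 4 was 1 under median centring, under normexp fitted on all spots, without low calcium rat 5, without low calcium rat 16 and without rats 3 and 16 together, was 2 on the series matrix and without high calcium rats 2 or 13 or low calcium rat 11, and was 0 without high calcium rat 18.

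**Figure D5:**
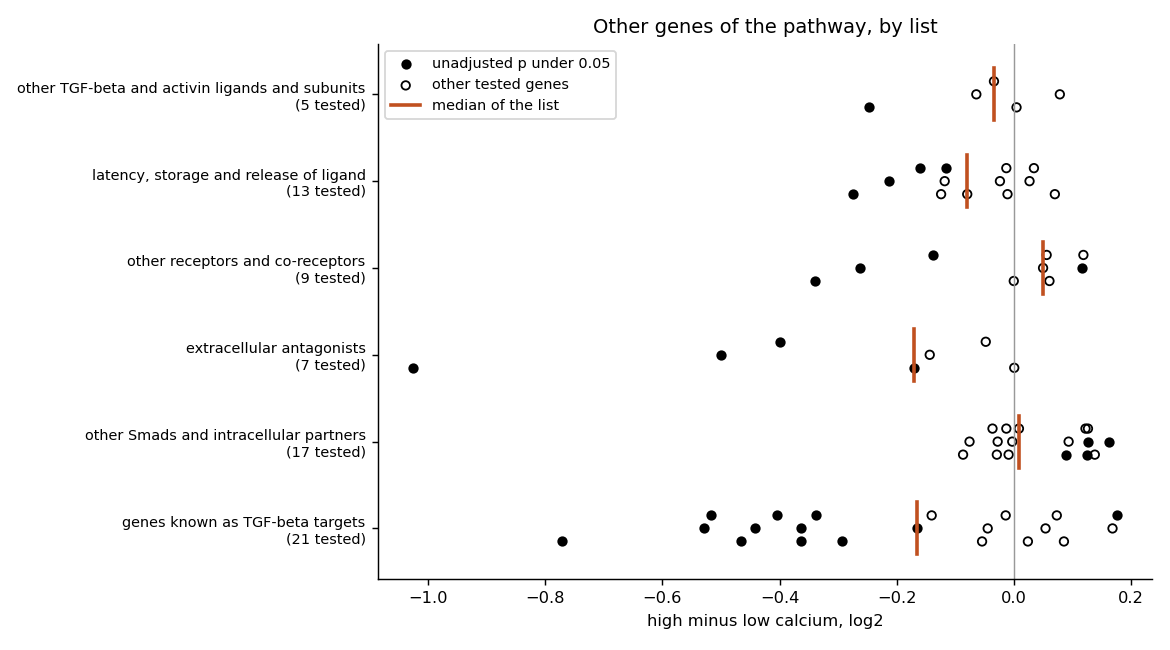
High minus low calcium difference (horizontal axis, log2) of each tested gene in 6 lists of the pathway. Filled points had an unadjusted p under 0.05, open points did not, and the coloured line is the median of the list. Dcn at -1.02 and Fn1 at -0.77 lie farthest to the left, and the filled points of the intracellular partners lie right of 0.

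Some markers of several cell types also had lower ratios at high calcium. Of the 9 fibroblast markers 8 were tested, and all 8 were lower at high calcium at an unadjusted p under 0.05, with a median difference of -0.47. Their mean per rat ran from -0.80 to 0.21 at high calcium and from -0.11 to 0.49 at low calcium, with rat 3 highest at high calcium (0.21) and rat 16 among the lowest at low calcium (-0.02). Col1a1, Col1a2, Col3a1 and Dcn stand both among these markers and in the pathway lists. Tagln, the lower smooth muscle marker counted below, also stands among the known targets. Of 4 neutrophil markers 3 were lower (median -0.35), of 6 macrophage markers 3 (median -0.17) and of 3 endothelial markers 1. Of 10 colon epithelium markers 0 were lower and 1, Muc2, was higher by 0.27 ± 0.07 (SE), of 6 smooth muscle markers 1 was lower and 1 higher, and of 4 lymphocyte markers 0 had an unadjusted p under 0.05. The part of these cell types in the differences of Inhba, Ltbp1 and Tgfbi was not tested.

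The genes whose pattern over the 17 rats was most like that of Inhba, among 11516 named genes, were Pdgfra (r = 0.95), Prickle1 (0.94), Sulf1 (0.94), Itga1 (0.93) and Pdgfrb (0.93). Within the diets, after each group's mean was taken off, r for these ran from 0.88 to 0.91. Pdgfra and Pdgfrb also stand among the fibroblast markers above. Those most like Tgfb1 were Tinagl1 (r = 0.85), Rnf217 (0.84), Acot9 (0.81), Nucb2 (0.81) and Gabpa (0.81). Their r within the diets ran from 0.72 to 0.84. These genes were picked for the correlation, so no test is given, and all values come from the same arrays.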

How the data were processed

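RNA from mucosal scrapings was amplified and labelled in Cy5 for each rat, with pooled RNA of all the animals in Cy3 and no dye swap, per the labels' protocols. Per the file headers, the deposited spot intensities were written by version 9.5.1.1 of Agilent Feature Extraction. A deposited matrix of log2 values covers 28213 of 45018 features; the steps the authors took to make it are not given in the sources used here. Across probes and arrays, its values followed log2 Cy5 as deposited (r = 0.997, against 0.832 for the log2 Cy5 to Cy3 ratio without background correction), and that ratio once probes and arrays were centred (r = 0.983, against 0.850 for log2 Cy5 and 0.734 for the processed ratio); all array medians were 8.76, and the scale offset is unknown, so they served as an alternative only. The deposited columns without a sample numbered 0.

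Background was corrected by normexp (offset 50) and arrays were normalised by loess in limma 3.58.1 under R 4.3.3, with control spots and outlier spots at weight 0; outlier spots were then dropped and spots of a probe averaged. When normexp was fitted on all spots, 3 low calcium arrays had a narrow spread of ratios (median absolute deviation 0.021 to 0.080, against 0.137 to 0.191 on the rest). The parameters were therefore fitted on spots without a flagged background (0.140 to 0.194 on all arrays), a change made after the data were seen; the fit on all spots is given as an alternative.

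A probe was tested if its Cy5 signal was well above background on 8 or more arrays (27101 probes). Diets were compared by limma's lmFit and eBayes, two-sided, high minus low, with Benjamini-Hochberg adjustment over all probes; a gene is its brightest probe. Each label gives its own replicate number, and each replicate was taken as a separate rat. RefSeq (GRCr8) gave current names to 10735 probes by accession, 5577 by symbol and 3730 by synonym, and 20970 kept the array's name. Median Cy5 signal ran from 146.8 to 180.8 over a background of 43.5 to 53.5, and the number of arrays limits the precision. The rule for named genes took all members, up to 4 genes per list with the smallest unadjusted p under 0.05 (otherwise the 1 smallest), and the 5 genes most like Inhba and Tgfb1. Members and lists were chosen with earlier results of these data known. Alternatives changed background, normalisation, channel, filters, variance model, batch, probe rule and rats.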

Additional observations from a re-analysis of the deposited data

Results flagged for a closer look

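A single rat lay far from the rest of its group for 3 of the 22 sets of values searched (11 member probes in both groups), and chance alone flags about 1 in 20 such sets. Smad7 stood at 0.219 in high calcium rat 18, where the next of that group was 0.03. Tgfb1 stood at 0.094 in high calcium rat 14, against -0.07 for the next rat. The unadjusted p of Tgfb1 in limma was 0.00762 without rat 14 and ran up to 0.096 without other single rats. The brighter Tgfbi probe stood at -0.239 in low calcium rat 16, with the next low calcium rat at 0.04. No explanation for these values was tested.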

How the results depend on the processing

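Inhba, Ltbp1 and Tgfbi kept their direction and an unadjusted p under 0.05 in all 15 other settings, in the exact permutation test and without each of the 17 rats. Inhba ran from -0.59 to -0.38 over the other settings, Ltbp1 from -0.40 to -0.31 and Tgfbi from -0.31 to -0.17, and their adjusted p passed 0.05 only without rat 3 (Inhba and Ltbp1) or without rats 3 and 16 (Inhba, Ltbp1 and Tgfbi). Tgfb1 kept its direction throughout but had a p of 0.0532 under median centring, 0.121 on the series matrix, 0.0511 with no filter on dim probes, 0.0807 with slide as a block and 0.0520 with spots of flagged background left out. The count of members lower at an unadjusted p ran from 3 to 5, and from 3 to 4 without single rats, with 0 higher throughout. The fifth was Tgfbr2 under normexp fitted on all spots (-0.12, unadjusted p in limma 0.0277). Tgfb3 turned sign with no background correction (-0.021), on scanner processed signals (-0.17), under median centring (-0.0036), in the Cy5 channel alone (-0.086), on the series matrix (-0.013), with array weights (-0.016) and without rats 3 and 16 (-0.083), and ran from -0.037 to 0.063 without single rats. Tgfbr1 turned sign under normexp fitted on all spots (-0.017) and without rats 3 and 16 (-0.021), and ran from -0.0068 to 0.063 without single rats. No cause of these changes was tested.

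Over all probes 0 passed adjustment except with array weights (81), without rats 3 and 16 (420), and without single rats, where the count ran from 0 to 272, the highest being without rat 3 and 70 passing without rat 16. In the pathway lists together the 23 lower genes ran from 21 to 25, and from 19 to 24 without single rats. The 6 higher genes numbered 3 under median centring, 3 with slide as a block, 2 under normexp fitted on all spots, 3 without rats 3 and 16, and 0 to 8 without single rats (0 without high calcium rat 18). With no filter on dim probes, Tgfb2 differed by -0.05 and Smad3 by -0.10 (limma unadjusted p = 0.417 and 0.113), and neither was well above background on more than 1 array. Under the filter of all arrays Tgfb3 was not tested. No paired analysis was possible because the rats' numbers are unique and no number is shared between the diets.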
